A study of Mus musculus with 6 samples.

Results

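Kainate receptors are tetrameric glutamate-gated cation channels that act both postsynaptically and presynaptically in the hippocampus. GluK1, GluK2, and GluK3 (from *Grik1*, *Grik2*, and *Grik3*) can form channels by themselves and bind kainate with lower affinity, whereas GluK4 and GluK5 (from *Grik4* and *Grik5*) bind it with high affinity and need a partner of the first kind to reach the cell surface. The delta subunit GluD1 (from *Grid1*) belongs to the same superfamily by sequence but is not opened by glutamate in the usual way, and it acts as an adhesion molecule that binds secreted cerebellins and, through them, presynaptic neurexins. Receptors with GluK2, GluK4, and GluK5 are best known from the synapses of dentate granule cell mossy fibers on CA3 pyramidal neurons, and *Grik1* from interneurons.

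The mRNA levels of these 6 genes were examined by RNA-Seq in untreated hippocampi of 3 Phf21bΔ4/Δ4 mice, numbered 2, 3, and 6, and of 3 wild-type Phf21b+/+ mice, numbered 5, 7, and 8, to ask how depletion of PHF21B, a chromatin reader, relates to them. The members were taken by gene symbol, and all 6 were present among the 14477 genes with deposited values. The mutant is a whole-body line made with CRISPR/Cas9 on a C57BL/6J background by deletion within exon 4 of *Phf21b*, and it keeps some PHF21B, so that it is a knockdown. The methods of the study describe young adult littermates of both sexes, a few months old, for its experiments in general. The age and sex of each of these 6 mice are not given in the sources used here. Each mouse gave 1 library of total RNA depleted of ribosomal RNA.

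Values are CPM (read counts scaled to the normalized library size). The listed genes held between 20495605 and 24881257 reads in each mouse. The genotypes were compared with limma's moderated test on log2 CPM, fitted over all 14477 genes, with a false discovery rate (FDR) by the Benjamini-Hochberg method over all of them. Differential expression meant an FDR under 0.1 together with a change above 1.3-fold. By this rule 80 of all genes (0.553%) were higher and 96 (0.663%) lower in Phf21bΔ4/Δ4 mice. For 1 gene in 3 against 3 mice, 0.1 is the smallest p that the exact permutation test can reach. *Phf21b* had 2.15, 3.57, and 3.87 CPM in Phf21bΔ4/Δ4 replicates 2, 3, and 6 and 6.50, 5.23, and 6.47 CPM in Phf21b+/+ replicates 5, 7, and 8. All 3 mutant mice lay below all 3 controls, as the labels say, although the log2 fold change of -0.96 had an FDR of 0.14 by limma.

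Markers of hippocampal fields and of neighboring tissue differed in level between the 6 libraries. The 6 markers of CA1 pyramidal neurons summed to 958 to 1315 CPM in Phf21bΔ4/Δ4 mice and 326 to 443 CPM in Phf21b+/+ mice. All 6 had a positive log2 fold change, although 3 of the 6 passed the test and *Wfs1* and *Pou3f1* overlapped between the genotypes. Many markers, including *Fibcd1*, *Mpped1*, *Gpr161*, *Gad2*, *Chat*, *Tcf7l2*, and *Aqp4*, are on the study's own list of differentially expressed genes. That list comes from these same data, so that the passing of such markers is no separate result. The 7 dentate granule cell markers summed to 275 and 250 CPM in Phf21bΔ4/Δ4 replicates 2 and 3, to 722 CPM in replicate 6, and to between 763 and 894 CPM in Phf21b+/+ mice. The 4 CA3 markers summed to 81.1, 37.5, and 124 CPM in Phf21bΔ4/Δ4 replicates 2, 3, and 6 and to between 114 and 146 CPM in Phf21b+/+ mice. Phf21bΔ4/Δ4 replicate 6 thus stood near the controls in dentate and CA3 markers, while replicates 2 and 3 stood apart. The 4 CA2 markers were between 90.8 and 254 CPM in Phf21bΔ4/Δ4 mice and between 152 and 173 CPM in controls. The sum of 8 interneuron markers was higher in every mutant mouse, at 698 to 849 CPM against 475 to 541 CPM, although 1 of the 8 passed the test and *Npy* overlapped between the genotypes.

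Marker levels of tissue next to the hippocampus also differed. The 10 markers of the medial habenula summed to between 70.7 and 110 CPM in Phf21bΔ4/Δ4 mice and between 353 and 534 CPM in Phf21b+/+ mice. Of the 10 markers 9 passed the test as lower, and their median log2 fold change was -5.29. The mutant sums were mostly *Nwd2*, which did not pass, at 68.6, 84.6, and 42.2 CPM in replicates 2, 3, and 6. The defining marker *Chat*, the acetylcholine-synthesizing enzyme, had 0 reads in Phf21bΔ4/Δ4 replicates 3 and 6. Of 7 thalamic markers 6 were listed (*Gbx2* was not), with sums of 47.6 to 153 CPM against 261 to 396 CPM. Of these 2 passed the test as lower, while *Lef1*, *Prkcd*, and *Plekhg1* overlapped between the genotypes. *Zic1* held much of the control sums, at 127, 200, and 153 CPM in Phf21b+/+ replicates 5, 7, and 8. In Phf21bΔ4/Δ4 replicates 2, 3, and 6 it had 4.68, 2.95, and 24.9 CPM. The 7 choroid plexus markers ranged from 22.6 to 79.7 CPM in Phf21bΔ4/Δ4 mice and from 28.0 CPM to 15618 CPM in Phf21b+/+ mice, the highest value being that of replicate 7. Sums differed less for 5 astrocyte markers (1615 to 1921 CPM in Phf21bΔ4/Δ4 mice and 1910 to 2089 CPM in Phf21b+/+ mice) and 5 oligodendrocyte markers (4887 to 7251 and 5715 to 7599 CPM). Among the astrocyte markers *Aqp4*, the water channel aquaporin-4, was differentially expressed and lower in mutants, at 254, 210, and 255 CPM against 391, 393, and 362 CPM (log2 fold change -0.68, FDR 0.067 by limma). *Gfap* was below the controls in every mutant mouse (230 to 443 against 475 to 589 CPM), as in 16.0% of all genes, with an FDR of 0.17 by limma. The log2 fold change of the other astrocyte markers was 0.22 (*Slc1a3*), 0.09 (*Aldh1l1*), and -0.003 (*Gja1*). The sums of the 5 microglial markers (252 to 259 and 224 to 243 CPM), the 5 endothelial markers (96.3 to 120 and 68.2 to 91.9 CPM), and the 2 markers of oligodendrocyte precursors (111 to 161 and 93.6 to 110 CPM) were higher in every mutant mouse. No marker on these lists passed the test, and 2 of the 5 microglial markers had a negative log2 fold change. Among the endothelial and precursor markers, *Pecam1*, *Tek*, *Cdh5*, and *Cspg4* overlapped between the genotypes. In bulk tissue, fewer cells of a type and less RNA per cell cannot be told apart, and the part of these shifts in the levels of the receptor genes was not tested.

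**Figure D1:**
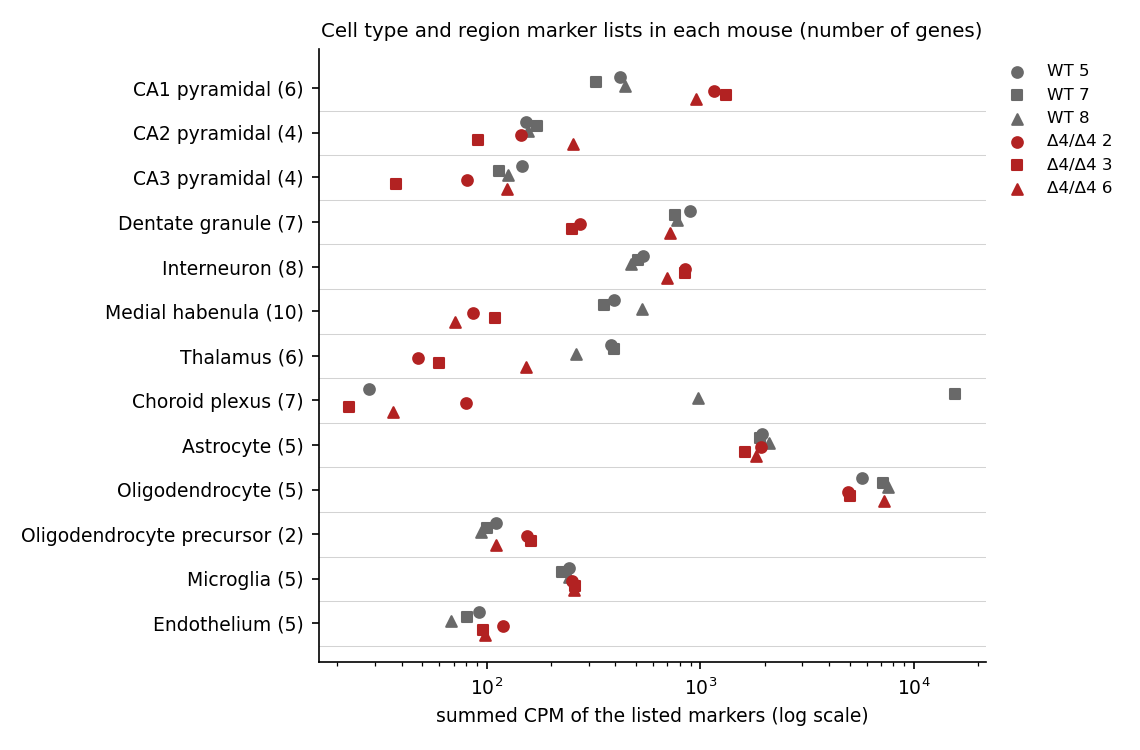
Summed CPM (log axis) of each marker list in each mouse, gray for Phf21b+/+ and red for Phf21bΔ4/Δ4, with 1 symbol per replicate and the number of listed genes in parentheses. Sums of CA1 and interneuron markers lay higher and those of medial habenula and thalamic markers lower in all 3 Phf21bΔ4/Δ4 mice, and dentate markers were low in Phf21bΔ4/Δ4 replicates 2 and 3 (275 and 250 CPM) but not in replicate 6 (722 CPM).

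Among the 6 receptor genes, 1 was differentially expressed: the delta subunit gene *Grid1* was higher in Phf21bΔ4/Δ4 hippocampi. The study's own list of differentially expressed genes, from a count test at the same thresholds, includes none of the 6 genes. The 5 kainate subunit genes did not pass the thresholds. The log2 fold change was positive for *Grik1*, *Grik3*, *Grik4*, and *Grik5* and near 0 for *Grik2*. The median log2 fold change over the 6 genes was 0.52, and over all genes it was -0.02. At an unadjusted p under 0.05 there were 2 of the 6 genes, *Grid1* and *Grik5*, and 3421 of all genes. The levels rested on between 287 reads (*Grik1*, in its lowest library) and 2778 reads (*Grik3*, in its highest), so that counting error was at most 5.90% of a value. The SD between mice ran from 11.5% of the mean (*Grid1*) to 72.8% (*Grik3*) in Phf21bΔ4/Δ4 mice and from 4.24% (*Grid1*) to 23.4% (*Grik5*) in controls.

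*Grid1* (ENSMUSG00000041078.7) maps to chr14:34820108-35583379 of GRCm38 on the plus strand. Its level was 101, 109, and 86.8 CPM in Phf21bΔ4/Δ4 replicates 2, 3, and 6 and 69.4, 64.0, and 68.1 CPM in Phf21b+/+ replicates 5, 7, and 8. The lowest mutant mouse lay above the highest control, so that the genotypes did not overlap (exact permutation test, p = 0.1), as was the case, with the mutants higher, in 15.0% of all genes. The mean was 99.1 ± 11.4 CPM in mutant and 67.2 ± 2.85 CPM in control mice (SD, n = 3 each). On the log2 scale the change was 0.56, with a standard error (SE) of 0.10 and an FDR of 0.093 by limma's moderated test, a 1.47-fold increase with a 95% interval from 1.24-fold to 1.73-fold. *Grid1* was the gene with rank 155 by p-value, close to the FDR threshold. The call was lost when any mouse other than Phf21bΔ4/Δ4 replicate 6 was left out (FDR from 0.13 to 0.31), while the log2 fold change stayed between 0.48 and 0.65 with each of the 6 mice left out.

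**Figure D2:**
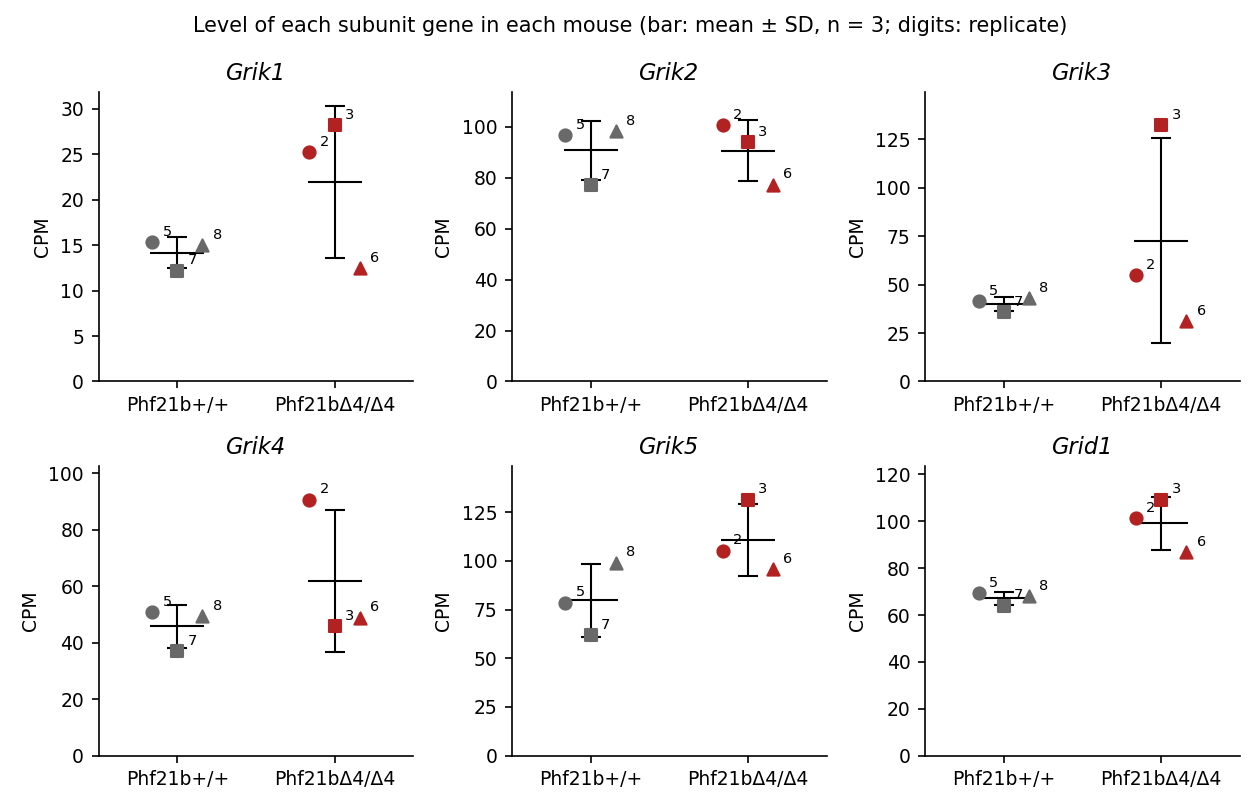
Level of each of the 6 genes in CPM in each mouse, gray for Phf21b+/+ and red for Phf21bΔ4/Δ4, with replicate numbers beside the points and bars for the mean ± SD (n = 3). Separation of all mutant mice from all controls was seen for *Grid1*, while *Grik3* was raised mostly in Phf21bΔ4/Δ4 replicate 3 (132 CPM) and *Grik4* in replicate 2 (90.6 CPM).

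*Grik5* (ENSMUSG00000003378.9), for the high-affinity subunit GluK5, maps to chr7:25009849-25072346, minus strand. It had 105, 132, and 95.7 CPM in Phf21bΔ4/Δ4 replicates 2, 3, and 6 and 78.6, 61.9, and 99.2 CPM in Phf21b+/+ replicates 5, 7, and 8. Only mutant replicate 6 and control replicate 8 crossed, and the means were 111 ± 18.5 CPM and 79.9 ± 18.7 CPM (SD, n = 3 each; exact permutation test, p = 0.2). The genotypes differed by 0.49 on the log2 scale (SE 0.19), with an FDR of 0.20 by limma, and its 95% interval ran from 1.02-fold to 1.93-fold.

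*Grik4* (ENSMUSG00000032017.14), for the other high-affinity subunit, maps to chr9:42518135-42944493, minus strand. Its level was 90.6, 45.8, and 48.8 CPM in Phf21bΔ4/Δ4 replicates 2, 3, and 6 and 50.8, 37.0, and 49.5 CPM in Phf21b+/+ replicates 5, 7, and 8. Replicate 2 stood alone above the controls, and the other mutant mice lay within the control range. The log2 change was 0.38 with all mice (SE 0.27, FDR 0.41, limma) and 0.06 without Phf21bΔ4/Δ4 replicate 2. The CA3 markers, in whose cells *Grik4* is known to be abundant, summed to 81.1 CPM in replicate 2 and to 114 CPM in the lowest control, and their part in the level of *Grik4* was not tested.

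*Grik1* (ENSMUSG00000022935.16), for GluK1, maps to chr16:87895900-88290265, minus strand and had the lowest CPM of the family. It had 25.3, 28.2, and 12.5 CPM in Phf21bΔ4/Δ4 replicates 2, 3, and 6 and 15.3, 12.2, and 15.0 CPM in Phf21b+/+ replicates 5, 7, and 8. Replicates 2 and 3 were above every control, and replicate 6 was within the control range. The log2 change was 0.55 (SE 0.31, FDR 0.30, limma), and without Phf21bΔ4/Δ4 replicate 6 it was 0.92 with an FDR of 0.022, which passes the threshold. Without that mouse 2830 of all genes passed, against 176 with all mice, and 10.3% of all genes passed as higher in mutants. Interneuron markers summed to 698 CPM in replicate 6 and to at most 541 CPM in Phf21b+/+ mice, and their part in the level of *Grik1* was not tested.

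*Grik3* (ENSMUSG00000001985.9), for GluK3, maps to chr4:125490700-125714173, plus strand. Its level was 54.9, 132, and 31.0 CPM in Phf21bΔ4/Δ4 replicates 2, 3, and 6 and 41.3, 35.9, and 43.0 CPM in Phf21b+/+ replicates 5, 7, and 8. The mutant mice lay on both sides of the narrow control range, with replicate 6 below it. The log2 change of 0.61 (SE 0.48, FDR 0.44, limma) was the largest of the 6 genes and the least certain, with a 95% interval from 0.69-fold to 3.35-fold. It fell to 0.05 without Phf21bΔ4/Δ4 replicate 3, and it rose to 1.09 with an FDR of 0.093 without replicate 6.

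*Grik2* (ENSMUSG00000056073.16), for GluK2, maps to chr10:49094833-49788766, minus strand. It had 101, 94.0, and 77.3 CPM in Phf21bΔ4/Δ4 replicates 2, 3, and 6 and 96.7, 77.2, and 98.3 CPM in Phf21b+/+ replicates 5, 7, and 8. The ranges of both genotypes nearly coincided, and the means were 90.6 ± 12.03 CPM and 90.7 ± 11.7 CPM (SD, n = 3 each). The ratio of mutants to controls was 0.999, with a 95% interval from 0.80-fold to 1.25-fold, so that a change larger than 1.25-fold in either direction was outside the interval. The interval does not show that the levels were equal.

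Set against the control range, the mutant mice differed from each other. Phf21bΔ4/Δ4 replicate 2 exceeded all 3 controls in 6 of the 6 genes, where 34.9% of all genes did so. Replicate 3 exceeded them in 4 genes (37.7% of all genes). Replicate 6 exceeded them in 1 gene, *Grid1* (30.4% of all genes), lay within their range in 4, and fell below it in *Grik3*. Replicate 6 was also the mutant mouse whose dentate and CA3 marker sums were nearest to the controls. Whether these go together was not tested.

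**Figure D3:**
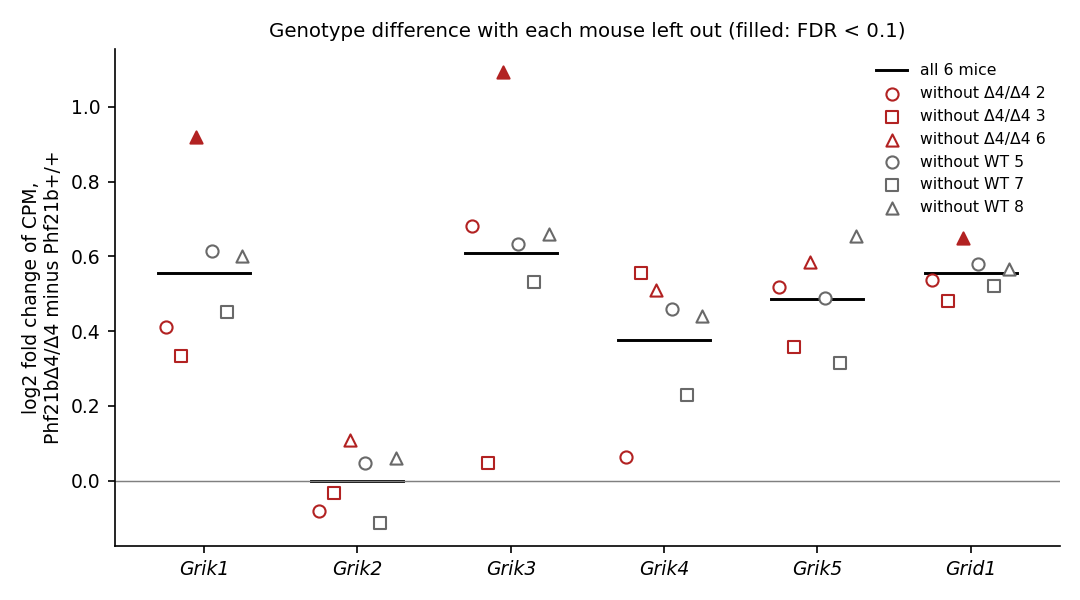
Log2 fold change of each gene (Phf21bΔ4/Δ4 minus Phf21b+/+) with all 6 mice (black line) and after leaving out each mouse (symbols, filled where the FDR was under 0.1). *Grid1* stayed between 0.48 and 0.65, while *Grik3* ran from 0.05 without Phf21bΔ4/Δ4 replicate 3 to 1.09 without replicate 6.

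To compare levels between genes, CPM was divided by gene length. Per kilobase of annotated exon, the order in Phf21b+/+ mice was *Grik5* (15.5 ± 3.62 CPM per kb), *Grid1* (11.3 ± 0.48), *Grik4* (7.67 ± 1.28), *Grik2* (6.85 ± 0.89), *Grik3* (4.46 ± 0.41), and *Grik1* (2.11 ± 0.26) (mean ± SD, n = 3). *Grik4* and *Grik2* overlapped between mice, although *Grik4* was the higher within each control mouse. The other neighbors in this order did not overlap between mice. *Grik2* has 13246 bp of annotated exon but 2949 bp of coding sequence. Per kilobase of coding sequence it was therefore the highest, at 30.8 ± 3.98 CPM per kb, before *Grik5* (25.9 ± 6.06) and *Grid1* (22.2 ± 0.94). These neighbors overlapped between mice, although *Grik2* was above *Grik5* within each control mouse. *Grik4* and *Grik3*, at 15.9 ± 2.66 and 14.5 ± 1.35 CPM per kb of coding sequence, overlapped between mice too, and *Grik1* was the lowest at 4.73 ± 0.57. The last 2 places, of *Grik3* and *Grik1*, were thus the same with both lengths.

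As a share of the summed kainate subunit level per kilobase of exon, *Grik5* took 40.1% to 45.8% in Phf21b+/+ mice and 38.4% to 48.9% in Phf21bΔ4/Δ4 mice. *Grik4* took 19.8% to 22.5% in controls but 28.7%, 13.0%, and 21.6% in Phf21bΔ4/Δ4 replicates 2, 3, and 6. *Grik3* took 11.4% to 13.4% in controls and 11.5%, 24.9%, and 9.13% in the same mutant mice. The proportions were thus alike among controls and differed among mutants. The share of *Grik2* was lower in each mutant mouse (14.3%, 11.99%, and 15.4%) than in each control (19.2%, 19.6%, and 17.7%), on the scale of coding sequence as well (21.6% to 29.2% against 32.3% to 34.4%). This is a difference in proportion, since the CPM of *Grik2* did not separate the genotypes. The sum itself was 53.1, 59.2, and 37.9 CPM per kb in Phf21bΔ4/Δ4 replicates 2, 3, and 6 and 37.9, 29.8, and 41.9 CPM per kb in Phf21b+/+ replicates 5, 7, and 8, and the genotypes overlapped. No test was made of these sums and shares.

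**Figure D4:**
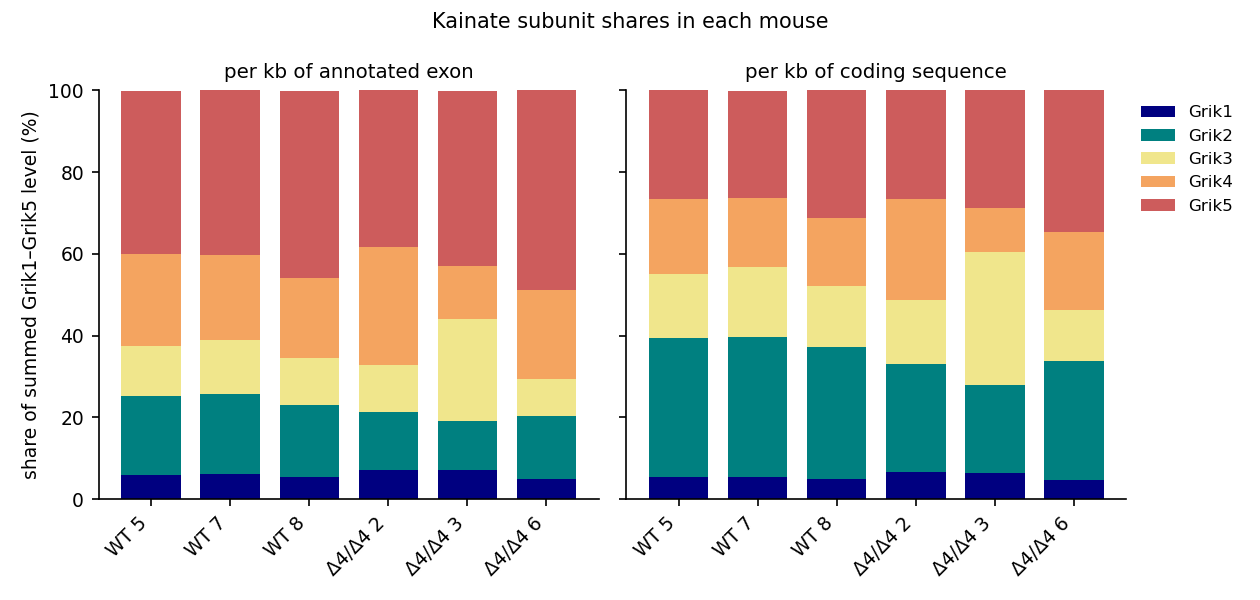
Share of each kainate subunit gene in the summed *Grik1* to *Grik5* level (percent) in each mouse, per kilobase of annotated exon on the left and of coding sequence on the right. The *Grik2* share was lower in the 3 Phf21bΔ4/Δ4 mice on both scales, and *Grik3* and *Grik4* shares varied most among those mice.

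Of 19 partner genes, 17 were listed (*Cbln3* and *Klhl17* were not). Among them 1 was differentially expressed, *Nrxn3*, and it was higher in Phf21bΔ4/Δ4 mice, as were 0.553% of all genes. The study's own list of differentially expressed genes does not include *Nrxn3*. The median log2 fold change of the 17 was 0.22. *Nrxn3*, a presynaptic neurexin to which cerebellin-bound GluD1 is linked, had 245, 234, and 253 CPM in Phf21bΔ4/Δ4 replicates 2, 3, and 6 and 164, 135, and 178 CPM in Phf21b+/+ replicates 5, 7, and 8. All mutant mice were above all controls, as in 15.0% of all genes, with a log2 change of 0.62 (SE 0.11, FDR 0.093, limma). As for *Grid1*, the call was lost when any mouse other than Phf21bΔ4/Δ4 replicate 6 was left out. Without Phf21bΔ4/Δ4 replicate 3, *Cbln2* was the 1 partner that passed, and without replicate 6 there were 10, where 19.5% of all genes passed.

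The auxiliary subunits NETO1 and NETO2 assemble with kainate receptors and change their gating. *Neto1* had 257, 195, and 101 CPM in Phf21bΔ4/Δ4 replicates 2, 3, and 6 and 98.2, 72.6, and 113 CPM in Phf21b+/+ replicates 5, 7, and 8, so that replicate 6 again lay within the control range. The log2 change was 0.88 (SE 0.35, FDR 0.19, limma). *Neto2* had 87.8, 114, and 108 CPM against 87.1, 73.2, and 83.5 CPM (log2 fold change 0.34, FDR 0.17, limma). The genotypes did not overlap by a margin of less than 1 CPM, as in 15.0% of all genes with the mutants higher.

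The other extracellular organizers did not pass the test. The neurexin gene *Nrxn2* was above the controls in every mutant mouse (165 to 293 CPM against 130 to 151 CPM), as in 15.0% of all genes, with an FDR of 0.17 by limma. *C1ql2*, a C1q-like protein of mossy fibers that gathers kainate receptors and is itself on the dentate marker list, had 25.6, 22.4, and 81.6 CPM in Phf21bΔ4/Δ4 replicates 2, 3, and 6 and 111, 99.9, and 91.3 CPM in Phf21b+/+ replicates 5, 7, and 8 (FDR 0.16, limma). *Cbln2*, a cerebellin that binds GluD1, had 11.4, 29.2, and 7.53 CPM against 49.6, 36.6, and 44.5 CPM (log2 fold change -1.67, FDR 0.14, limma). For both genes every mutant mouse was below every control, as was the case in 16.0% of all genes. *Cbln1* and *Cbln4* were highest in Phf21bΔ4/Δ4 replicate 3, at 26.2 and 37.8 CPM, and otherwise between 3.37 and 12.1 CPM. Of the 7 intracellular partners listed, 0 passed by limma's FDR (2 had an unadjusted p under 0.05, and voom called 0 too). *Grip1* and *Grid2ip* passed with arrayWeights, and these and *Cask* passed without Phf21bΔ4/Δ4 replicate 6, both being settings that called far more of all genes. *Grid2ip*, a scaffold that binds delta receptors, had between 0.548 and 0.714 CPM in Phf21bΔ4/Δ4 mice and between 1.57 and 6.41 CPM in Phf21b+/+ mice (FDR 0.12, limma). *Dlg4*, for PSD-95, had 498 to 503 CPM and 363 to 493 CPM (FDR 0.31, limma).

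**Figure D5:**
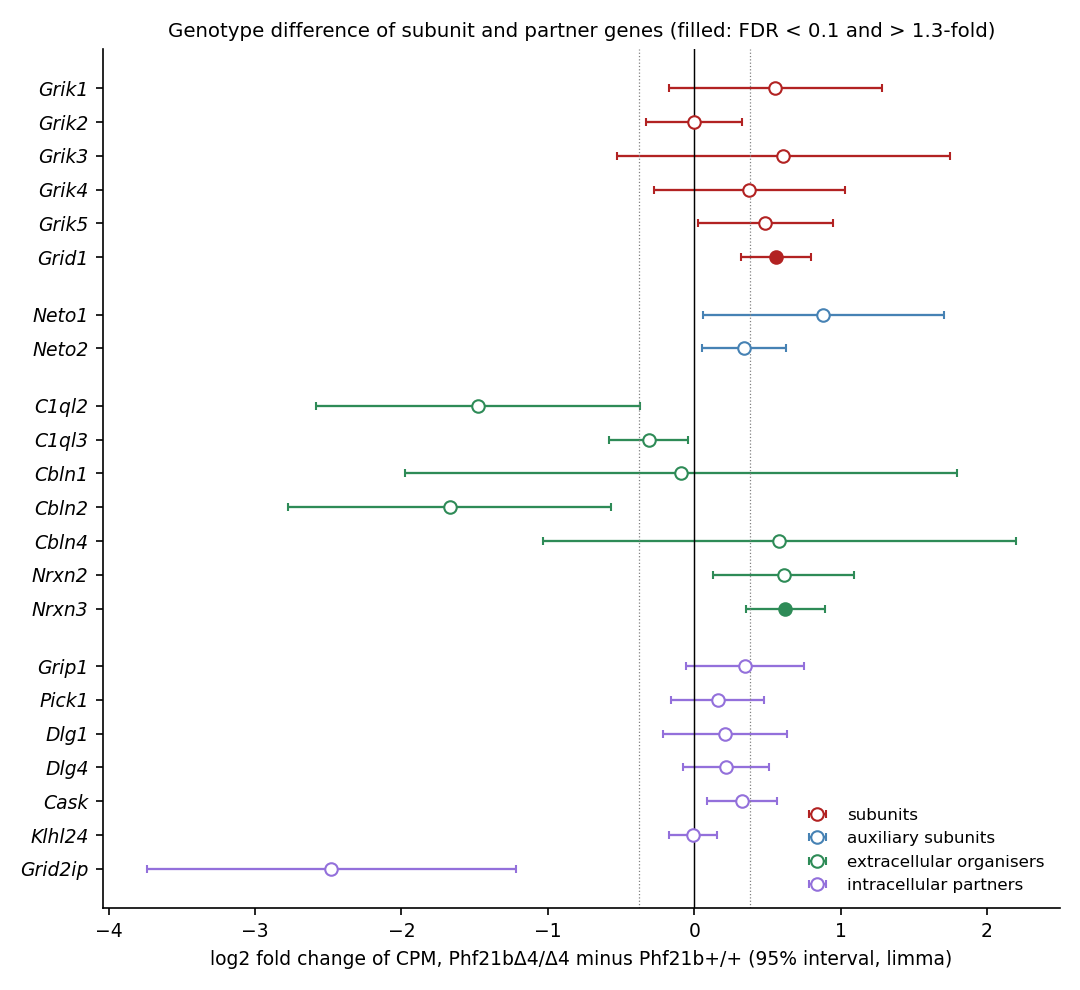
Log2 fold change of CPM (Phf21bΔ4/Δ4 minus Phf21b+/+) with its 95% interval by limma for the 6 receptor genes and the partners, all but 1 of those listed, colored by role and filled where differentially expressed, with dotted lines at a 1.3-fold change. *Grid1* (0.56) and *Nrxn3* (0.62) have narrow intervals and pass, whereas *Grik3* and *Cbln4* have wide ones.

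The genes whose log2 CPM over the 6 mice was most like that of each receptor gene were sought among 10267 genes by Pearson's r. It is given as a description, since the mice differ in both genotype and marker levels. Genes picked in this way follow the receptor gene by selection, so that a shared order or peak is no separate result. For *Grid1* the genes found were *Carm1*, *Elfn2*, and *Ndst1* (r = 0.995, 0.995, and 0.995). *Elfn2* had 183, 192, and 158 CPM in Phf21bΔ4/Δ4 replicates 2, 3, and 6 and 115 to 130 CPM in controls, the same order of mutant mice as *Grid1*. For *Grik3* they were *Lasp1*, *Mrps27*, and *Pcdh15* (r = 0.9996, 0.995, and 0.994), and *Pcdh15* had its highest level in Phf21bΔ4/Δ4 replicate 3 as well (33.5 CPM, against 10.4 to 16.4 CPM in the other mice). For *Grik4* the first 2 were *Frzb* and *Sub1* (r = 0.982 and 0.981), and *Frzb* likewise peaked in replicate 2 (53.9 CPM, against 18.1 to 22.9 CPM). They were *Mblac2*, *Cabin1*, and *Fxyd6* for *Grik1* (r = 0.996, 0.995, and 0.994), *Map2k5*, *Sipa1*, and *Phip* for *Grik2* (r = 0.986, 0.983, and 0.979), and *Scg3*, *Pds5b*, and *Prrt1* for *Grik5* (r = 0.995, 0.995, and 0.993). Among the members themselves, r was 0.89 between *Grik1* and *Grik3* and 0.11 between *Grik3* and *Grik4*.

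CREB, a transcription factor that the study examined together with PHF21B, binds the cAMP response element, with the palindrome TGACGTCA and the core TGACG. RefSeq promoter sequences (GRCm38.p6, from 250 bases before to 50 after a start) were found for 4 of the 6 genes, *Grik2*, *Grik3*, *Grik4*, and *Grik5*. On either strand the palindrome occurred in 0 of these 4 and in 1.79% of all 32851 promoters, and the core, which the palindrome contains, occurred in *Grik2* and in 20.8% of all promoters. GGGCGG, the GC box bound by SP1 family factors, occurred in *Grik3* (7 times), *Grik4* (2), and *Grik5* (2), and in 35.7% of all promoters. G and C made up between 64.7% and 82.0% of the 4 promoters, against a median of 52.7%. The promoters of *Grik2*, whose level was alike in both genotypes, and *Grik5*, the kainate subunit gene with the lowest p-value, are shown as examples 5′ to 3′, with the TGACG core and GC boxes of either strand in capitals. They lie at chr10:49788705-49789004 and chr7:25072320-25072619, both on the minus strand.
Grik2: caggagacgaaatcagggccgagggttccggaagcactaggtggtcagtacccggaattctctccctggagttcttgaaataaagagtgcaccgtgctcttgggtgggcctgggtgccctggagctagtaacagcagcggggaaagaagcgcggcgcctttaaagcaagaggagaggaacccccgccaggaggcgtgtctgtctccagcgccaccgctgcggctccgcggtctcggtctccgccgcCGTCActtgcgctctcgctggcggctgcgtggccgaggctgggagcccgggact
Grik5: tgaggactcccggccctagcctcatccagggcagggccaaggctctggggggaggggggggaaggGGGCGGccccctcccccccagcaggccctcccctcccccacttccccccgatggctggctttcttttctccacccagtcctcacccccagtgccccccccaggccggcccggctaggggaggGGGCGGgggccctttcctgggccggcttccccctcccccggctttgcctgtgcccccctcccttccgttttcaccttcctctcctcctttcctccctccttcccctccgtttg
A match is a string of letters and no evidence of binding, and no binding was measured in these data.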

How the data were processed

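Hippocampal RNA-Seq samples were grouped by their titles. The labels number the samples without stating that each is a separate mouse. They are called mice here, and otherwise the p-values measure technical spread only. The authors trimmed reads with Trimmomatic (0.39), mapped them to GRCm38 with STAR (2.7.3a), counted them per gene with featureCounts (Subread 1.6.4), filtered genes on CPM, and normalized to effective library size before they deposited log2 CPM for 14477 genes. The strandedness of counting is not given in the sources used here, and the genes that overlap a member were not among those listed. Relative to the lowest deposited log2 value (-7.81, taken as 0 reads), all values were whole reads within 0.1 read, which gave CPM, reads, and depth.

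All genes were fitted with limma 3.58.1 in R 4.3.3 (lmFit, eBayes with a trend, no covariate, 2-sided) on the deposited log2 values. The count test of the study was not run, although whole reads could be worked out, and voom on those reads was an alternative. Thresholds are those of the study. The function was checked on simulated counts without differences in tissue makeup or outlying mice. That check covers the code and not the spread between these mice. Intervals are at 95% from the same fit. Lengths and positions came from GENCODE M21 (GRCm38), while the authors used M24. Other steps used Python 3.11.15 with pandas 2.3.3, figures were drawn with matplotlib 3.10.9, and SciPy 1.17.1 gave the intervals.

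The genes named are the 6 members, *Phf21b*, differentially expressed partners, *Neto1*, *Neto2*, marker genes, and the 3 genes best correlated with each member among those whose log2 CPM averaged 3 or more and that have an assigned name. *C1ql2*, *Cbln1*, *Cbln2*, *Cbln4*, *Nrxn2*, *Dlg4*, *Grip1*, *Cask*, and *Grid2ip* were named after their values were seen. A partner and a correlated gene are not reported here by name. The members and lists were chosen with earlier results of these data known. Alternatives were an equal prior variance, robust fitting, arrayWeights, a filter at a mean log2 CPM of 1, log2(CPM + 1), quantile normalization, median centring, voom on the reads, other thresholds, and leaving out each mouse.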

Additional observations from a re-analysis of the deposited data

How the results depend on the processing

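The number of differentially expressed receptor genes, 1 in the comparison reported, was 0 with an equal prior variance, with the filter on low values, with voom on the reads, and at an FDR under 0.05, and 3 with arrayWeights (*Grik1*, *Grik4*, and *Grid1*). With each mouse left out it ran from 0 to 3. For *Grid1* the log2 fold change was 0.56 with equal prior variance (FDR 0.15), with the filter (FDR 0.11), and with voom (0.56, FDR 0.11), and 0.48 to 0.65 with each mouse left out (FDR 0.014 to 0.31). Under arrayWeights, which gave Phf21b+/+ replicate 8 the most weight, it was 0.68 for *Grik1* (FDR 0.033), 0.61 for *Grik4* (FDR 0.075), and -1.32 for *Phf21b* (FDR 0.012). With each mouse left out it was 0.33 to 0.92 for *Grik1*, 0.047 to 1.09 for *Grik3*, 0.06 to 0.56 for *Grik4*, 0.32 to 0.66 for *Grik5*, and -1.12 to -0.70 for *Phf21b*. *Grik2* had a positive sign with arrayWeights (0.0053) and with median centring (0.047), and ran from -0.11 to 0.11 with each mouse left out. The number of differentially expressed partners, 1 in the comparison reported, was 0 with equal prior variance, the filter, quantile normalization, voom, and an FDR under 0.05, 7 with arrayWeights, and 0 to 10 with each mouse left out, the 10 without Phf21bΔ4/Δ4 replicate 6. Of all genes 176 were called in the comparison reported, 75 with equal prior variance, 101 of 12966 with the filter, 3549 with arrayWeights, and 9 to 2830 with each mouse left out, the 2830 without Phf21bΔ4/Δ4 replicate 6. The causes were not tested. Per kilobase of coding sequence in place of exon, the mean shares in Phf21b+/+ mice were 5.17% for *Grik1*, 33.6% for *Grik2*, 15.9% for *Grik3*, 17.3% for *Grik4*, and 28.0% for *Grik5*, against 5.81%, 18.8%, 12.3%, 21.0%, and 42.0%. No paired analysis was made. The genotypes share no replicate numbers, and the litter of each mouse is not given in the sources used here.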
